A study of Mus musculus with 6 samples.

Results

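The genes described here are 40 genes of ribosome biogenesis and the nucleolus, matched by symbol to the rows of the deposited count tables. They were taken as a list of names chosen with earlier results of these data known. Counts over the list are therefore a description. All 40 had exactly 1 row among the 47561 rows of each table, and all 40 were among the 16022 genes with enough counts to be tested. The study sequenced RNA of LT-HSCs (long-term hematopoietic stem cells), the self-renewing cells at the top of the blood lineages, sorted from mouse bone marrow. The 3 control libraries carry a wild-type label. The 3 knockout (KO) libraries are titled as knocked out for Piezo1, the gene of a channel that opens under mechanical force, but the genotype field names Piezo1 only for KO replicate 1, and names Piezo2 and Piezo3 for KO replicates 2 and 3. Groups were taken from the titles. The Cre driver or other means of deletion, the age and the sex of the mice are not given in the sources used here, and no treatment is named. Whether each library is from its own mouse is not labelled, and the p-values therefore describe spread among 6 samples that may be technical in part.

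Ribosome production starts in the nucleolus, where RNA polymerase I copies the ribosomal DNA into a long precursor RNA. Small nucleolar RNAs, each carried by a small nucleolar ribonucleoprotein (snoRNP), guide chemical marks onto that precursor: box C/D particles direct methylation of the ribose and box H/ACA particles direct the change of uridine to pseudouridine. Processing factors then cut, fold and load the precursor with ribosomal proteins to give the small and the large subunit, and in blood stem cells the rate of protein synthesis is known to be kept low. Many of these genes are known targets of MYC, which binds as a pair with MAX to the E-box, whose most typical form is CACGTG.

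Promoter sequences were examined because a shared promoter word is the kind of feature that members of this pathway could have in common without regard to their level. RefSeq promoter windows, from 250 bases before to 50 bases after an annotated start on GRCm38.p6, were given for 34 of the 40 genes. CACGTG, which reads the same on both strands, was present in 9 of the 34 (26.5%). It was present in 8.09% of the 27025 genes with a window and in 11.5% of the 11133 tested genes with a window. The 9 genes were Rrn3, Wdr43, Utp4, Utp20, Tsr1, Pes1, Nop2, Mybbp1a and Surf2. None of the 3 box C/D genes or 5 box H/ACA genes with a window held it, and 4 of the 9 small subunit genes did. The first 4 stretches below hold the word, in capitals, and belong to genes with lower values in KO libraries. The last is from Nop56, the box C/D gene with the lowest p, whose window has no such word. Positions count from the RefSeq start, and all stretches lie on the plus strand. The Surf2 stretch is chr2:26916376-26916405, from -32 to -3. The Rrn3 stretch is chr16:13780579-13780698, from -120 to -1. The Wdr43 stretch is chr17:71616219-71616248 and the Utp4 stretch is chr8:106893644-106893673, both from 5 to 34 in the first exon. The Nop56 stretch is chr2:130274292-130274411, from -120 to -1.
Surf2: ggcgctctgtctCACGTGgtggctgcggcg
Rrn3: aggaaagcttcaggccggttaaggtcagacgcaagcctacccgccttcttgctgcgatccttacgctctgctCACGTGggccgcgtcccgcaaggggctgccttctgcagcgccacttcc
Wdr43: gcgcccgggcgaaCACGTGgctgccgcgga
Utp4: gcgcaagcgcgCACGTGgggccggggcgga
Nop56: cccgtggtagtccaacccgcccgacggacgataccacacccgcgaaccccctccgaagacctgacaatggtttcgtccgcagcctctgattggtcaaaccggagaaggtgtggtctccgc
A match describes letters in a window and not a bound site. Of the 12 genes that were below control at an unadjusted p under 0.05 and had a window, 4 held it, as did 5 of the other 22. Across all tested genes with a window, 7.87% of the 1283 with the word and 6.05% of the 9850 without it were below control at that p.

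Several facts of the libraries bear on what follows. Total counts lay between 59435258 and 64653956, with 16264 to 18540 genes detected per library. Levels are given as CPM, counts scaled to a library total adjusted by the trimmed mean of M values (TMM). For Piezo1, control libraries had 17.0, 7.02 and 24.3 CPM and KO libraries 4.28, 7.99 and 9.46 CPM, so that control replicate 2 lay below 2 of the libraries labelled KO (edgeR adjusted p = 0.508). All 12 LT-HSC markers were detected, with summed levels of 1082 to 1430 CPM in control against 973 to 1237 CPM in KO, but single markers differed in opposite directions. Ly6a (Sca-1) had 324, 373 and 284 CPM in control libraries, while KO libraries had 89.2, 207 and 72.8 CPM, 2.66-fold lower with no overlap. Procr (EPCR) was 3.53-fold lower with overlapping groups, and the growth factor receptor gene Kit was 1.73-fold higher with no overlap (edgeR adjusted p = 0.297 for Ly6a, 0.397 for Procr and 0.398 for Kit). The other 9 had unadjusted p-values of at least 0.130 in edgeR. Among them, Tek was 1.985-fold higher with no overlap (27.8, 16.9 and 4.80 CPM in control, 28.7, 41.0 and 28.5 CPM in KO). Summed erythroid markers (10 genes) were 740 to 4730 CPM in control against 7336 to 25400 CPM in KO, and summed megakaryocyte markers (8 genes) were 966 to 1255 and 1892 to 2798 CPM. Neither pair of ranges overlapped; singly, 4 of the 10 erythroid markers, all globin genes, and 5 of the 8 megakaryocyte markers had KO libraries entirely above controls. Summed T and NK cell markers (8 genes, Cd8a at 0) were 147 to 214 CPM in control against 254 to 268 CPM in KO. That sum was nearly all Nkg7, a granule gene of cytotoxic cells (127 to 208 CPM in control libraries, 246 to 250 CPM in KO libraries). The other 3 markers with enough counts to test had negative values with overlapping groups: Cd4 (-1.78), Klrb1c (-1.39) and Lck (-0.44). Granulocyte markers (10 genes) reached 12230 CPM in control replicate 3, against 120 to 1176 CPM elsewhere. Summed B cell markers (8 genes, Igll1 at 0) were 31.1 to 89.1 CPM in control against 33.7 to 38.1 CPM in KO, and stromal markers (8 genes, with Lepr, Cdh5 and Lum at 0) were 12.1 to 27.8 and 16.6 to 40.8 CPM. Monocyte and macrophage markers (8 genes) were 15.6 to 246 and 13.7 to 50.04 CPM. The part of these cell types in the results was not tested.

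Across the 40 genes, the values leaned to lower levels in KO libraries, and none passed the threshold of an edgeR adjusted p under 0.05. No gene of the 16022 tested passed it in either direction (percent called 0), the lowest adjusted p being 0.172. The log2 fold change, KO against control, was negative for 31 of the 40 genes (77.5%), against 47.8% of all genes tested. Its median was -0.25 over the 40 genes and 0.03 over all genes tested, and it ranged from -1.21 to 0.52. Below control at an unadjusted p under 0.05 were 13 of the 40 (32.5%), against 5.59% of all genes tested (896 genes), and above control at that p were 0 of the 40, against 5.44% (871 genes). Every KO library lay below every control library for 14 of the 40 (35%), against 8.76% of all genes tested, and above for 1, Polr1a, against 10.7%. The other 25 overlapped. With DESeq2, 6 of the 40 were below control at an adjusted p under 0.05, against 1.92% of the 14920 genes given an adjusted p, and 0 were above, against 1.64%. The 6 were Surf2 (adjusted p = 0.000221), Nop56 (0.00853), Wdr43 (0.0212), Utp15 (0.0236), Utp4 (0.0386) and Dkc1 (0.0394). In bulk RNA, fewer cells of a type and less RNA per cell cannot be told apart.

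**Figure D1:**
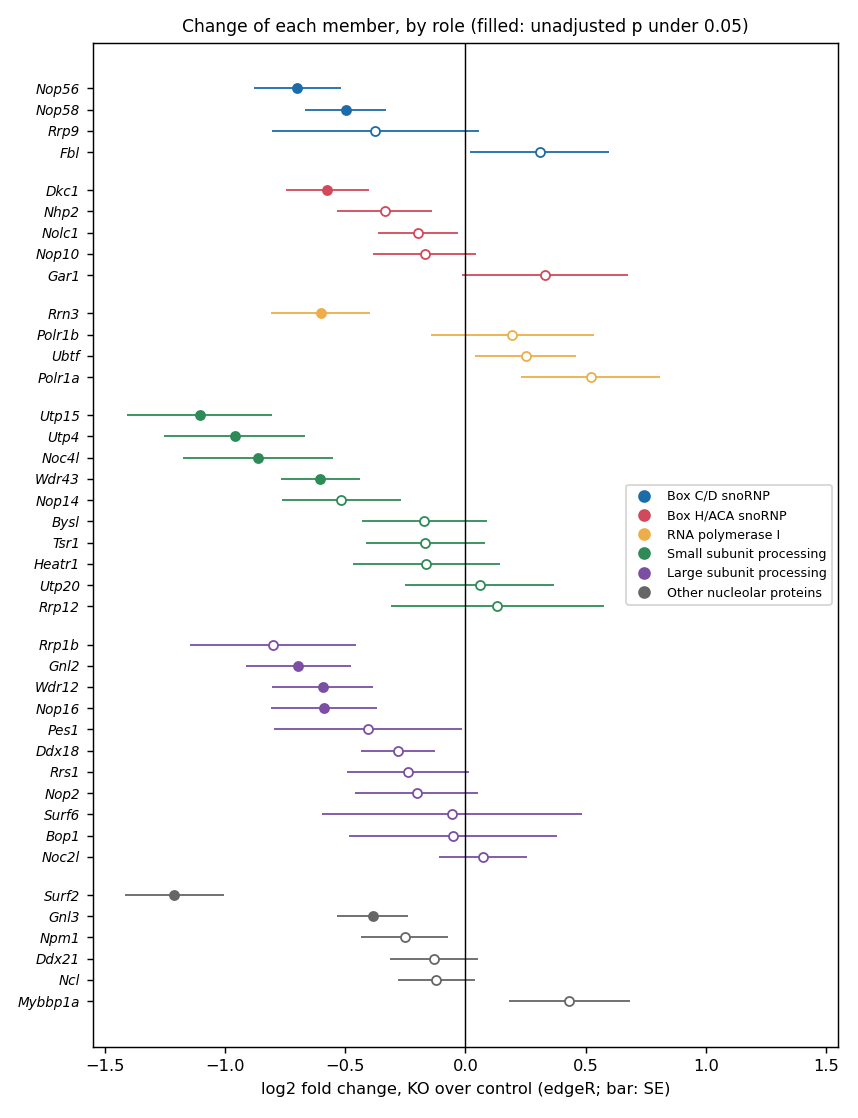
The log2 fold change, KO against control (horizontal axis), is plotted for each of the 40 genes, grouped by role, with its SE from edgeR as a bar and a filled point where the unadjusted p is under 0.05. The 13 filled points all lie below 0, and the 9 points above 0, with Polr1a highest at 0.52, are all open.

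The core proteins of box C/D snoRNPs had values on both sides of control. Nop56 and Nop58, the paired scaffold proteins that hold the guide RNA, had lower values in KO. Nop56 (chromosome 2, 130274430 to 130279313, plus strand, GRCm38) had 516, 437 and 361 CPM in control replicates 1 to 3 and 285, 243 and 281 CPM in KO replicates 1 to 3. All 3 KO libraries lay below all 3 controls, and KO was 1.62-fold lower, with a log2 fold change of -0.70 (SE 0.18, edgeR adjusted p = 0.277). Nop58 had 347, 267 and 340 CPM in control against 248, 214 and 213 CPM in KO, again with no overlap, at a log2 fold change of -0.50 (SE 0.17). Fbl, the fibrillarin methyltransferase that makes the mark itself, had 56.5, 74.5 and 113 CPM in control against 94.4, 83.6 and 124 CPM in KO. Those groups overlapped, at 0.31 (SE 0.29). Rrp9, a protein specific to the U3 particle, had 15.6, 51.6 and 35.9 CPM in control against 32.2, 24.3 and 23.1 CPM in KO, with the control libraries spread on both sides of the KO libraries.

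The ratio of Nop56 to Fbl within each library was 9.13, 5.86 and 3.21 in control and 3.03, 2.91 and 2.27 in KO. The ratio of Nop58 to Fbl was 6.14, 3.58 and 3.02 in control and 2.63, 2.56 and 1.72 in KO. All KO ratios lay below all control ratios, whereas those of Nop56 to Nop58 overlapped. These pairs were picked with the values known, so the ratios are a description; an exact permutation test of 3 against 3 cannot go below 0.1.

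Among box H/ACA genes, Dkc1, the dyskerin pseudouridine synthase, had the clearest difference. It had 402, 306 and 307 CPM in control against 239, 206 and 236 CPM in KO. The groups did not overlap, and the log2 fold change was -0.57 (SE 0.17, edgeR adjusted p = 0.322). Its partners had overlapping groups. Nhp2, which binds the guide RNA, had 473, 368 and 551 CPM in control against 419, 359 and 325 CPM in KO, at -0.33 (SE 0.20). Nop10, the small protein that holds dyskerin in shape, had 799, 596 and 954 CPM in control against 799, 700 and 589 CPM in KO, at -0.17 (SE 0.21). In both genes control replicate 2 lay among the KO libraries. Gar1, which helps release the modified RNA, had 11.2, 15.9 and 21.0 CPM in control against 24.3, 16.6 and 19.6 CPM in KO, at 0.33 (SE 0.34). Nolc1, a chaperone of snoRNPs on the way to the nucleolus, had 105, 116 and 127 CPM in control against 113, 92.3 and 98.2 CPM in KO, at -0.20 (SE 0.17). Per kilobase of transcript, control RNA levels of the genes for this particle's core proteins ran from 12.6 CPM for Gar1 to 121 for Dkc1, 445 for Nhp2 and 706 for Nop10.

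The 4 RNA polymerase I genes were the only role group of the 40 with a positive median (0.22), and they had values on both sides of control. The 11 other subunits and factors of this polymerase, described further below, had a median of -0.21, with 9 negative. Rrn3 (TIF-IA), the factor that makes the polymerase able to start, had 108, 72.6 and 102 CPM in control against 67.1, 57.2 and 62.0 CPM in KO. No KO library reached the lowest control library, and the log2 fold change was -0.60 (SE 0.21, edgeR adjusted p = 0.374). Polr1a, the largest subunit of the enzyme, had 17.9, 29.1 and 33.6 CPM in control against 41.3, 34.8 and 39.6 CPM in KO. It was the 1 gene of the 40 whose KO libraries all lay above the controls, at 0.52 (SE 0.29, edgeR adjusted p = 0.566). The second-largest subunit, Polr1b, had 40.2, 81.1 and 46.4 CPM in control against 70.8, 44.0 and 77.3 CPM in KO, and its groups overlapped over most of their range. Ubtf, the factor that keeps ribosomal DNA open, had 53.9, 75.7 and 80.5 CPM in control against 85.9, 74.96 and 89.1 CPM in KO, at 0.25 (SE 0.21). The median of the 4 genes was 0.048 without control replicate 1, 0.11 without KO replicate 3, 0.36 without KO replicate 2 and 0.42 without control replicate 2. The ratio of Rrn3 to Polr1a was 6.03, 2.49 and 3.05 in control and 1.63, 1.64 and 1.57 in KO, described without a test like the ratios above. The ratio of Rrn3 to Polr1b, the other core subunit, overlapped: 2.69, 0.896 and 2.20 in control and 0.949, 1.30 and 0.802 in KO. Of the 15 such ratios formed within a complex or process, 5 had all KO libraries below all controls and 10 overlapped. Transcripts of Polr1a are long (9216 bases), and KO replicate 3 and control replicate 1 stood at opposite ends of a trend with length: the rank correlation of each library's deviation with transcript length over genes was 0.261 and -0.25. With trends on length and GC content removed, the value of Polr1a was 0.03, that of Rrn3 -0.66 and the median of the group 0.02.

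**Figure D2:**
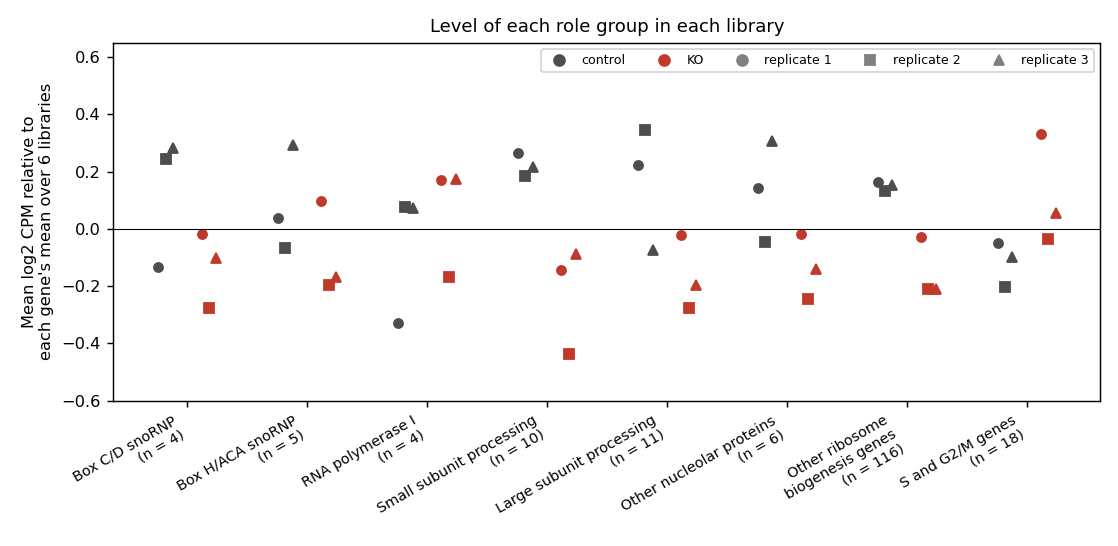
Each point is 1 library's mean log2 CPM over the genes of a role group, centred on each gene's mean of 6 libraries (vertical axis), with control in grey and KO in red. For small subunit genes all KO points (-0.44 to -0.09) lie below all control points (0.19 to 0.27), and for RNA polymerase I the groups overlap. The 116 other ribosome biogenesis genes separate as the small subunit genes do. For the 18 S and G2/M phase genes the lowest KO point (-0.04) lies just above the highest control point (-0.05).

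Small subunit processing was the 1 role group of the 6 whose mean level was lower in every KO library than in every control library. That separation was not particular to it. The mean over all 40 genes separated in the same way. So did those of further snoRNP assembly, small subunit, large subunit and exosome genes described below, but not that of further RNA polymerase I genes. For the 10 small subunit genes, the mean of log2 levels relative to each gene's mean was 0.27, 0.19 and 0.22 in control. In KO it was -0.14, -0.44 and -0.09. Of the 10, 8 were negative, with a median of -0.34. Utp15, Utp4 and Wdr43 encode proteins of the t-UTP group, which joins the precursor RNA as it is being made. Utp15 (chromosome 13, 98246845 to 98263041, minus strand) had 74.1, 71.3 and 73.7 CPM in control against 44.5, 37.3 and 20.04 CPM in KO. The control libraries were within 3 CPM of each other, and KO was 2.15-fold lower, at -1.11 (SE 0.30, edgeR adjusted p = 0.291). Utp4 had 208, 107 and 120 CPM in control against 91.1, 63.7 and 68.9 CPM in KO, at -0.96 (SE 0.29). Wdr43 had 155, 187 and 200 CPM in control against 123, 126 and 108 CPM in KO, at -0.60 (SE 0.17). In these 3 genes no KO library reached the lowest control library. Heatr1, another t-UTP protein and a long transcript, did not share that separation: it averaged 61.3 ± 9.36 CPM in control against 54.8 ± 19.2 CPM in KO (SD, n = 3), and KO replicate 2 was lowest.

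Noc4l and Nop14 encode partners that bind each other in late nucleolar steps of the small subunit. Noc4l had 102, 136 and 57.8 CPM in control against 49.1, 52.6 and 60.5 CPM in KO, at -0.86 (SE 0.31). Its groups overlapped, since KO replicate 3 lay above control replicate 3. Nop14 averaged 59.3 ± 17.3 CPM in control against 41.4 ± 2.48 CPM in KO (SD, n = 3), with no overlap, at -0.52 (SE 0.25). Among the other 5 genes, Bysl, Tsr1, Rrp12 and Utp20 are needed for cutting or export of the small subunit precursor, and together with Heatr1 they had log2 fold changes from -0.17 to 0.13 and overlapping groups.

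Of the 11 large subunit processing genes, 10 were negative, with a median of -0.28. Gnl2, a GTPase that travels with the large subunit precursor, had 80.6, 69.9 and 53.2 CPM in control against 46.5, 40.1 and 39.1 CPM in KO. The log2 fold change was -0.70 (SE 0.22, edgeR adjusted p = 0.347), and the groups did not overlap. Wdr12, Pes1 and Bop1 encode the 3 proteins of the PeBoW complex, needed to process the precursor of the large subunit RNA. Wdr12 had 295, 202 and 309 CPM in control against 197, 155 and 182 CPM in KO, at -0.59 (SE 0.21). Pes1 averaged 77.6 ± 33.9 CPM in control against 58.6 ± 17.6 CPM in KO, and Bop1 averaged 48.6 ± 27.0 and 46.9 ± 12.99 CPM (SD, n = 3), both with overlapping groups. The ratios of Wdr12 to Pes1 and of Wdr12 to Bop1 overlapped too, so a different response within the complex was not shown. Nop16 had 223, 163 and 190 CPM in control against 160, 123 and 100 CPM in KO, at -0.59 (SE 0.22), and KO replicate 1 lay just under control replicate 2. Rrp1b averaged 47.7 ± 17.2 CPM in control against 27.4 ± 7.96 CPM in KO (SD, n = 3), at -0.80 (SE 0.34). It was the gene just outside the unadjusted threshold, at an edgeR p of 0.0519, and Gnl3 was just inside it at 0.0342. Ddx18, an RNA helicase, had control libraries of 154 to 157 CPM and KO libraries of 112 to 142 CPM, at -0.28 (SE 0.15). The other 4, Nop2, Rrs1, Surf6 and Noc2l, ranged from -0.24 to 0.07 and overlapped.

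The 6 other nucleolar genes had a median of -0.19, and 5 of them were negative. Npm1 (nucleophosmin), a chaperone that makes up much of the nucleolar granule, had the highest level per kilobase of the 40 genes in control, 1410 CPM per kilobase, and Polr1a the lowest, 2.92. Npm1 averaged 2303 ± 454 CPM in control against 1933 ± 188 CPM in KO (SD, n = 3), at -0.25 (SE 0.18). Ncl (nucleolin), which binds the precursor RNA, stood at -0.12 (SE 0.16), and the helicase Ddx21 at -0.13 (SE 0.18). All 3 had overlapping groups. Gnl3 (nucleostemin), a nucleolar GTPase named for its abundance in stem cells, had 340, 301 and 359 CPM in control against 272, 244 and 250 CPM in KO, with no overlap, at -0.38 (SE 0.15). Mybbp1a, a repressor that also sits in the nucleolus, averaged 59.3 ± 17.0 CPM in control against 80.0 ± 11.8 CPM in KO (SD, n = 3), at 0.43 (SE 0.25). Surf2, a nucleolar protein encoded in the surfeit gene cluster (chromosome 2, 26916367 to 26920183, plus strand), had the lowest p of the 40. It had 75.9, 54.9 and 72.4 CPM in control against 30.5, 28.9 and 28.4 CPM in KO, a 2.31-fold difference at -1.21 (SE 0.21, edgeR adjusted p = 0.255). The KO libraries lay within 3 CPM of each other and far below the lowest control.

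**Figure D3:**
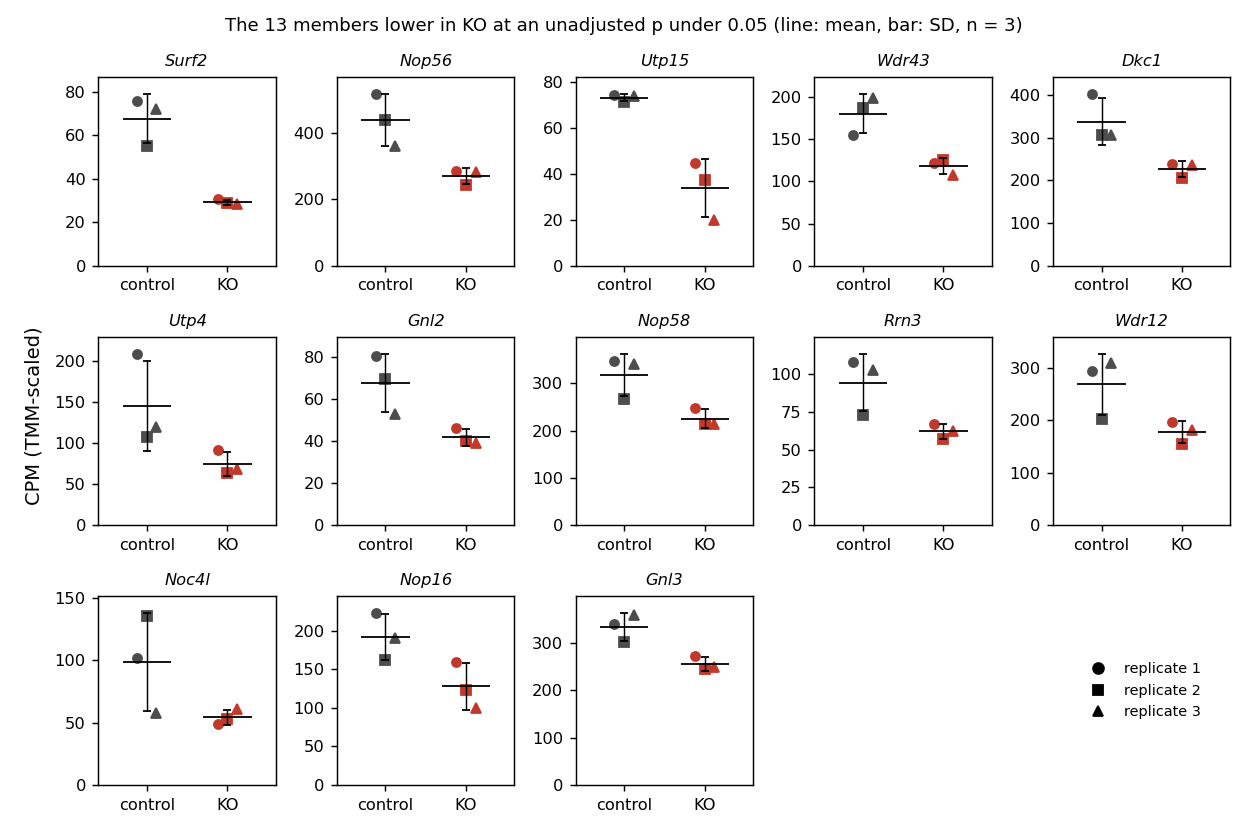
Each panel shows 1 of the 13 genes below control at an unadjusted p under 0.05, with TMM-scaled CPM on a vertical axis from 0, a point per library, the mean as a line and the SD as a bar (n = 3). Control and KO points separate in 12 of the 13 panels, and in the Noc4l panel control replicate 3 sits at 57.8 CPM, below KO replicate 3 at 60.5 CPM.

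The 13 genes came from each of the 6 role groups: 2 of 4 box C/D, 1 of 5 box H/ACA, 1 of 4 RNA polymerase I, 4 of 10 small subunit, 3 of 11 large subunit and 2 of 6 other nucleolar genes. Their adjusted p-values in edgeR lay between 0.255 and 0.408. The 9 genes with positive values were Polr1a, Mybbp1a, Gar1, Fbl, Ubtf, Polr1b, Rrp12, Noc2l and Utp20. These 9 had a median GC content of 55.8% and a median transcript length of 3998 bases, and the 13 had 47.3% and 2232 bases, so composition and length moved with direction within the set. Over the 40 genes, the Spearman correlation of the log2 fold change with GC content was 0.371 and with length 0.265, given as a description; over all genes tested it was 0.026 and 0.228. With both trends removed, 13 of the 40 were again below control at an unadjusted p under 0.05 and the median was -0.33. Nop16 and Gnl3 were then above that p, at 0.128 and 0.135 in edgeR, and Ncl and Rrp1b were under it, at 0.0166 and 0.0309.

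Some of the 40 genes carry small nucleolar RNA genes inside their introns, and their splicing releases guide RNAs for the same particles. GENCODE annotates such genes in 7 of them: Nop56 (5 genes), Nop58 (4), Wdr43 (3), Ncl (3), Gnl3 (3), Tsr1 (2) and Dkc1 (1). All 7 were negative, against 47.8% of all genes tested, with a median of -0.50. Below control at an unadjusted p under 0.05 were 5 of the 7, against 5.59% of all genes tested. Of the 33 without one, 24 were negative, with a median of -0.20, and 8 were below control at that p. The guide RNAs themselves are too short for this kind of library and are not described. Among 11 other host genes, most of them noncoding (Gas5 and the Snhg genes, with Zfas1 and Rack1), 0 were below control at that p. Above control was 1 (9.09%), Zfas1, against 5.44% of all genes tested. In a list of 11 genes both counts are near the shares over all genes. Zfas1 had 139, 100 and 166 CPM in control against 186, 193 and 200 CPM in KO, at 0.52 (SE 0.21). Gas5 averaged 869 ± 176 CPM in control against 1084 ± 86.5 CPM in KO (SD, n = 3), at 0.32 (SE 0.18), with overlapping groups.

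Genes that start next to these genes on the opposite strand can share a stretch of promoter DNA. They were listed by position alone, and a shared promoter was not tested. A neighbour starting within 1000 bases on the other strand was found in 13 pairs. Of the 13 neighbours, 0 were below control at an unadjusted p under 0.05, against 5.59% of all genes tested. Negative values were found for 3, against 47.8%. At that p 1 (7.69%), Pbrm1 beside Gnl3, was above control (0.80, SE 0.32), against 5.44%. In a list of 13 genes, counts of 0 and 1 are near those shares. Surf1, a factor for assembly of mitochondrial cytochrome oxidase that starts beside Surf2, had 88.9, 59.8 and 51.6 CPM in control against 54.1, 59.7 and 69.1 CPM in KO, at -0.13 (SE 0.25). The ratio of Surf2 to Surf1 was 0.854, 0.919 and 1.40 in control and 0.564, 0.485 and 0.411 in KO. Ankra2, beside Utp15, stood at 0.16 (SE 0.35), and the ratio of Utp15 to Ankra2 was 1.47, 2.39 and 3.72 in control and 1.12, 1.05 and 0.547 in KO. For 3 of the 11 pairs in which both genes had usable levels (Surf2, Utp15 and Gnl3 with their neighbours) all KO ratios lay below all control ratios, and for the other 8 they overlapped. Such ratios were not formed for neighbouring genes in general, so no background share stands beside these counts.

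**Figure D4:**
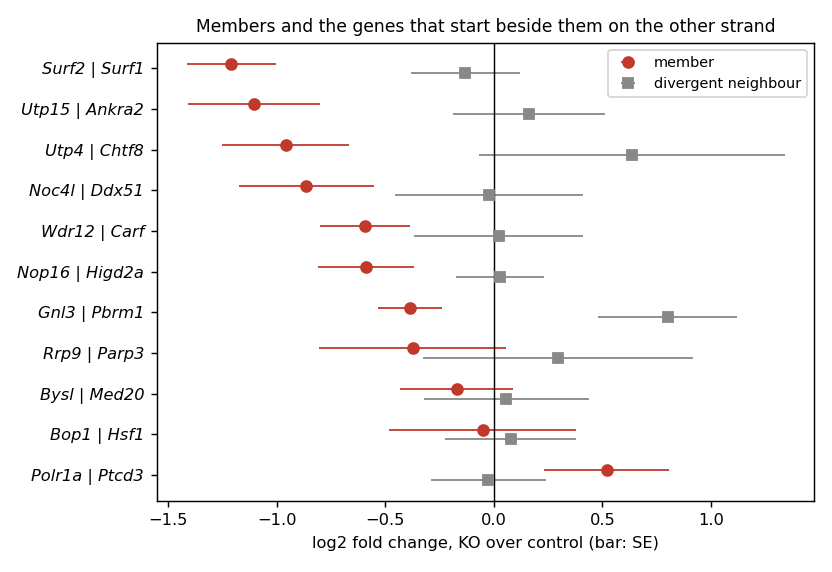
The log2 fold change, KO against control (horizontal axis, SE as bars), is shown for each of 11 genes of the set, in red, and for the gene that starts beside it on the other strand, in grey. Surf2 lies at -1.21 and Surf1 at -0.13, Utp15 at -1.11 and Ankra2 at 0.16, and the bars of several other pairs overlap.

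Counting by strand is not stated, so reads from overlapping genes could be shared. Exons of 19 of the 40 genes overlap another annotated gene, for 2 of them over more than 10% of their exon bases: Tsr1 with Srr (32.3%) and Noc2l with Samd11 (20.9%). Surf2 overlaps Surf1 over 4.02% and Surf4 over 4.23% of its exon bases, and Surf4 stood at -0.29 (SE 0.20). Nop56 overlaps only 5 bases of Idh3b, a mitochondrial dehydrogenase subunit, which was itself lower in KO: 359, 332 and 265 CPM in control against 236, 213 and 204 CPM in KO, at -0.55 (SE 0.17, edgeR adjusted p = 0.337).

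The wider pathway, 116 genes on 5 lists of factors that are not among the 40, also leaned to lower values. These lists too were chosen with earlier results of these data known, so they are no independent test. Negative values were found for 94 of the 116 (81.0%), against 47.8% of all genes tested, and the median was -0.35. Below control at an unadjusted p under 0.05 were 32 (27.6%), against 5.59%. Above control at that p was 1 (0.86%), against 5.44%. In DESeq2, 14 of the 116 were below control at an adjusted p under 0.05, against 1.92% of all genes given an adjusted p. The list of snoRNP assembly factors, on which Snu13 (-0.32) and Nop53 (-0.11) were also counted, had 5 of 11 below control at the unadjusted threshold and 0 above. The 5 were Znhit6, Ruvbl1, Nufip1, Pih1d1 and Ruvbl2, of which Ruvbl1 and Ruvbl2 encode the paired ATPases that work with the R2TP complex. Znhit6, which brings box C/D proteins together, had 55.2, 55.0 and 78.6 CPM in control against 26.5, 33.1 and 33.9 CPM in KO, at -1.01 (SE 0.23). Ruvbl1 had 403, 339 and 261 CPM in control against 233, 163 and 113 CPM in KO, at -0.98 (SE 0.30). Both genes showed KO libraries entirely below controls.

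Of 11 other subunits and factors of RNA polymerase I, 9 were negative, with a median of -0.21. At the unadjusted threshold 1 of the 11 (9.09%) was below control, near the 5.59% of all genes tested. It was Polr1c, a subunit shared with RNA polymerase III, at -0.53 (SE 0.18). Next by p was Polr1e at -0.56 (SE 0.36). Further small subunit factors had 11 of 41 below and 0 above. Pno1, which guides the last cleavage of the small subunit RNA, had 205, 125 and 136 CPM in control against 71.9, 84.3 and 76.4 CPM in KO, at -1.002 (SE 0.22), and Imp4, a U3 particle protein, stood at -0.81 (SE 0.22). Further large subunit factors had 13 of 42 below and 1 above: Ppan (-0.67, SE 0.18) and Mrto4 (-0.72, SE 0.21) were lower, and the helicase Ddx27 (0.60, SE 0.23) was higher, with 38.1, 31.8 and 27.9 CPM in control against 49.7, 41.2 and 57.2 CPM in KO. Exosome genes, whose enzyme trims the precursor from its end, were negative in 11 of 11, with Exosc4 (-0.79, SE 0.22) and Exosc7 (-0.54, SE 0.18) below control at the unadjusted threshold.

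The network of MYC partners and competitors, 10 genes, had 1 below (10%) and 2 above (20%) control at the unadjusted threshold. Over all genes tested those shares were 5.59% and 5.44%, and a list of 10 genes is too short to set such counts apart from them. Mxi1, which competes with MYC for MAX, had 18.9, 23.3 and 16.9 CPM in control against 32.2, 39.8 and 46.9 CPM in KO, at 1.01 (SE 0.26, edgeR adjusted p = 0.277). Mlx, the partner of a parallel set of factors, stood at -0.84 (SE 0.31). Mnt, another competitor, stood at 1.57 (SE 0.63), and it and Myc are named after their values were seen. Myc had 334, 318 and 221 CPM in control against 198, 216 and 233 CPM in KO, at -0.43 (SE 0.20, edgeR adjusted p = 0.483). KO replicate 3 lay above control replicate 3, so its groups overlapped.

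Genes of DNA replication and mitosis were read beside the 40, since growth and division are often linked. Of 18 S and G2/M phase genes, 4 (22.2%) were above control at an unadjusted p under 0.05, against 5.44% of all genes tested. In these 4, Mki67, Top2a, Tpx2 and Cenpe, every KO library lay above every control library, against 10.7% of all genes tested. Below control at that p were 0, against 5.59%. Summed levels of the 18 overlapped, at 2901 to 3222 CPM in control against 2971 to 3684 CPM in KO. Their mean log2 level relative to each gene's mean was -0.05, -0.20 and -0.10 in control and 0.33, -0.04 and 0.06 in KO. By this measure, group means of the 18 and of all genes tested were alike: -0.12 and -0.11 in control, 0.12 and 0.11 in KO. By median log2 fold change they were not, at 0.24 for the 18 and 0.03 over all genes tested. Negative values were found for 6 of the 18 (33.3%), against 47.8%. Over the 40 genes the same mean was 0.11, 0.16 and 0.15 in control and -0.02, -0.29 and -0.11 in KO.

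The number of the 40 genes below control varied with the library left out, and so did the number over all genes tested. KO replicate 2 was the lowest of the 6 libraries for 16 of the 40 genes, and a KO library was lowest for 29. These 2 counts were not formed over all genes tested. Without KO replicate 2, 6 of the 40 were below control at an unadjusted p under 0.05, against 3.90% of all genes tested. Without control replicate 1 or without KO replicate 3, 7 were, against 3.35% and 3.46%. Over all genes tested the counts fell too, from 896 with all 6 libraries to 656, 573 and 584 in those fits. Without control replicate 3, the library with high granulocyte markers, 12 were below, against 7.62% of all genes tested. Above were 2, Fbl and Mybbp1a, against 1339 of 17038 genes. Without KO replicate 1, the library with the highest erythroid markers, 11 were below, against 5.07%, and the median was -0.37. All 13 genes stayed negative whichever library was left out. That was nearly fixed in advance: they were picked as negative in these libraries, and 12 had groups that did not overlap. From 5 to 12 of the 13 stayed under the unadjusted threshold in edgeR. Surf2, Nop56, Wdr43, Utp4 and Utp15 were each under the unadjusted threshold in edgeR in all 6 of these fits.

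**Figure D5:**
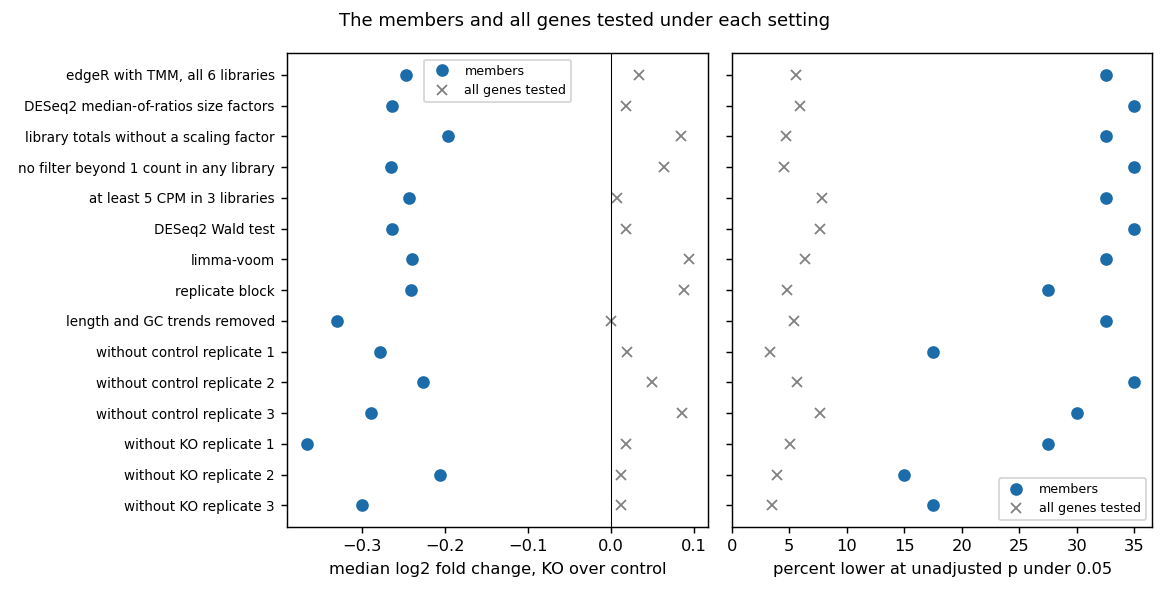
Each row is 1 way of processing the data, with the median log2 fold change on the left and the percentage below control at an unadjusted p under 0.05 on the right, for the 40 genes (blue circles) and all genes tested (grey crosses). In every row the circle on the left lies below 0 and that on the right lies beyond the cross, with the smallest counts when KO replicate 2 (6 genes), control replicate 1 or KO replicate 3 (7 genes each) is left out.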

How the data were processed

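Each library came with a table of raw gene counts as deposited by the authors. The build mm10, the counter featureCounts 1.6.4, the aligner HISAT2 2.1, and cutadapt 1.16.5, bcl2fastq 2.19 and DESeq2 2.11.40.6 are listed in the submitters' processing notes, without settings. Per the labels' protocols, RNA was extracted with TRIZOL and made into TruSeq RNA libraries. Strand and the treatment of reads with several matches are not given in the sources used here, and 2046 rows have identifiers of an assembler type, so the counting may rest in part on assembled models.

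In R 4.3.3, genes were kept by filterByExpr, scaled by TMM and fitted in edgeR 4.0.16 with its quasi-likelihood test over all 6 libraries, with Benjamini-Hochberg adjustment over 16022 genes and a threshold of 0.05. SEs were derived from the F statistic. Depth was alike across libraries (59435258 to 64653956 counts), and the common biological coefficient of variation was 0.755. No replicate pair agreed within sampling noise. The steps were tested on simulated counts.

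Alternatives were DESeq2 size factors, library totals, 2 other filters, DESeq2 1.42.0, limma-voom (limma 3.58.1), the replicate number as a block and leaving out each library. Removal of length and GC trends was added after seeing the data. The 40 genes and all lists were chosen with earlier results of these data known, so lists are described by counts beside all genes tested, with no test of a list. Named genes were those of the box C/D, box H/ACA and RNA polymerase I groups, every member with an unadjusted p under 0.05 or the lowest p of its group, and, per further list, the 2 with the lowest p and 1 in the other direction where its p was under 0.05; others are named as examples after their values were seen. Lengths, GC content, neighbours and snoRNA genes came from GENCODE annotation of GRCm38, and promoter windows from RefSeq GRCm38.p6.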

Additional observations from a re-analysis of the deposited data

How the results depend on the processing

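The 13 genes below control at an unadjusted p under 0.05 were negative under every alternative run, which was nearly fixed by how they were picked. The count of genes below control at that p was 11 to 14 where all 6 libraries were used. Leaving out 1 library gave 6 to 14 of the 40 genes below and 0 to 2 above control, with medians of -0.37 to -0.21; for the 116 pathway genes it gave 17 to 36 below, 0 to 3 above and medians of -0.45 to -0.34; and for all genes tested 573 to 1299 below and 562 to 1339 above, with 0 to 1 above at an adjusted p under 0.05 (1 without control replicate 1). At the adjusted threshold, DESeq2 called 286 genes lower and 244 higher, with 6 of the 40 and 14 pathway genes lower, where edgeR called 0, or 1 lower with the filter at 5 CPM; the cause was not tested. Pathway genes above control at the unadjusted p numbered 2 with library totals, 3 with limma-voom and 0 with the replicate block. With the replicate block, 11 of the 40 were below control and the median was -0.24. Deviations of same-numbered libraries were weakly correlated (0.038, 0.016 and 0.033), against -0.039 to 0.008 for libraries with different numbers. With 3 libraries a group, these values cannot decide whether a number marks a shared origin. Signs reversed for 11 genes, all with edgeR p-values of at least 0.414. With length and GC trends removed, Nop10 was 0.010, Utp20 -0.45, Rrp12 -0.36 and Noc2l -0.12. Bop1 was 0.052 with limma-voom and 0.066 with the replicate block. Over fits that left out 1 library, the range crossed 0 for Rrp9 (-0.72 to 0.028), Utp20 (-0.26 to 0.19), Heatr1 (-0.36 to 0.10), Rrp12 (-0.36 to 0.44), Bysl (-0.32 to 0.011), Tsr1 (-0.34 to 0.031), Bop1 (-0.38 to 0.44), Nop2 (-0.37 to 0.018), Noc2l (-0.082 to 0.19) and Surf6 (-0.47 to 0.26). The spread over 3 libraries a group limits the precision of each value.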
